A study of Homo sapiens with 2 samples.

Results

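The iron and heme handling genes described here are FTL, FTH1, TF, TFRC, HMOX1, CP, HPX, SLC40A1, SLC11A2 and IREB2, picked by symbol for their known roles. All 10 had values in the deposited table, among 11511 genes in all. The study measured RNA by RNA-seq in 1 library of Hep3B cells given A4368, a compound known here only by its code, at 25 µM for 24 h, and in 1 library of Hep3B cells that received no treatment. Hep3B is an established human hepatocellular carcinoma line, grown in DMEM with fetal bovine serum, so the values describe 1 tumour line and not normal hepatocytes. Whether the untreated cells received a vehicle is not stated. The comparison asks what the compound does to gene expression in these cells. With 1 library per group there is no replicate error, no test and no p-value, and every difference below is one between these libraries.

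Hepatocytes take up iron bound to transferrin through the transferrin receptor, store the excess inside ferritin shells built of light and heavy chains, and release iron through ferroportin, the exporter encoded by SLC40A1. They also secrete transferrin, ceruloplasmin and hemopexin into plasma, where these proteins carry iron, oxidise it or bind free heme. When cytosolic iron is low, iron regulatory proteins, one of them encoded by IREB2, bind hairpins called iron-responsive elements. Binding at the start of ferritin and ferroportin messengers blocks translation, while binding in the tail of the transferrin receptor messenger protects it from decay. Transcription adds another layer, since the factor NRF2 activates both ferritin genes and HMOX1, and the heme-sensing repressor BACH1 holds them down.

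The hairpins are printed because they are the sequence feature that several of these genes share and that the selection did not use. Messenger sequences came from GENCODE release 29 (build GRCh38), written 5′ to 3′ with T for U. The search took the messenger strand of annotated untranslated regions. Its pattern of 17 bases was made of C, any 5 bases, the loop CAGTGN and any 5 bases. The last base of the 6-base loop was not G, and the 5 bases on each side of the loop could pair, G with T allowed. The capitals mark the loop, and each line holds 30 bases, beginning 7 bases before the start given for its site. The site of FTL, on chromosome 19, starts at base 41 of its transcript, and that of FTH1, on chromosome 11, at base 36. The SLC40A1 site, on chromosome 2, starts at base 205, all of these in 5′ untranslated regions, and the TFRC sites, on chromosome 3, lie in the 3′ untranslated region from base 3097, 3501, 3566 and 3613.
FTL: tctcttgcttcaaCAGTGTttggacggaac
FTH1: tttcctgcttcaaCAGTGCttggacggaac
SLC40A1: ccaacttcagctaCAGTGTtagctaagttt
TFRC, site from base 3097: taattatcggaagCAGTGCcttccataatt
TFRC, site from base 3501: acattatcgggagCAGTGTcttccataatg
TFRC, site from base 3566: tctgtatcggagaCAGTGAtctccatatgt
TFRC, site from base 3613: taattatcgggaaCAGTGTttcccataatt

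The ferritin hairpins were alike at 27 of 30 bases, and the FTL and SLC40A1 hairpins at 14 of 30. The pattern occurred in untranslated regions of 130 of 19669 protein-coding genes (0.661%), and in those of 95 of the 10936 protein-coding genes kept in the table (0.869%). Regions of unequal length were searched, so a long one had more chances to match. TF also held a match, in the 3′ untranslated region of 1 long annotated transcript. No match was found in SLC11A2, HMOX1, CP, HPX or IREB2, which says only that these letters with this pairing are not in the annotated regions. Of these, SLC11A2 lies on chromosome 12, HMOX1 on 22, CP on 3, HPX on 11 and IREB2 on 15, and TF lies on 3.

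The values were taken to be FPKM, a count of fragments scaled to transcript length and to the mapped fragments of the library, and the depth is unknown. Since FPKM is scaled to transcript length, levels can be compared between genes. Differences are given as log2((A4368 FPKM + 1)/(control FPKM + 1)), called the log2 ratio, which understates the change of low genes, and as plain folds of the deposited values. Genes averaging 1 FPKM or more over both libraries were kept, 11238 in all, and a gene is said to pass the limit when its log2 ratio reaches 1.5-fold. All 10 hepatocyte and hepatoma markers examined, including ALB, AFP and HNF4A, had values. As deposited 8 of them were lower with A4368, where 48.0% of all genes kept were, and none passed the limit. Of the macrophage markers, 3 of 10 had values (CD14, CD68 and LYZ, together 39.9 FPKM with A4368 and 50.1 FPKM in the control, the difference being mostly that of LYZ, at 9.48 FPKM with A4368 and 17.6 FPKM in the control), and CD163, MARCO, VSIG4, CSF1R, TIMD4, CD5L and C1QA had none. Only EPOR of 10 erythroid markers had a value, no globin gene did, and none of 8 endothelial markers did. LUM and RGS5 were the stellate and fibroblast markers with values, of 8. Their part in the results was not tested. In bulk RNA, fewer cells expressing a gene and less RNA per cell cannot be told apart.

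Across the iron and heme genes, the secreted proteins HPX and CP were lower with A4368 and passed the limit, FTL was higher without passing it, and the other 7 lay within 1.2-fold on the log2 scale. Among all genes kept, 2.12% were lower by the limit and 1.08% were higher by it, against 2 and 0 of these 10. By a 2-fold limit 0.436% of all genes were lower and 0.116% higher, and none of the 10 was either. The split over the whole table was 121 higher and 238 lower (33.7% higher), and it became 259 higher and 260 lower (49.9% higher) when both libraries were brought to 1 sum that leaves out the 50 most abundant genes, the rescaling named below. By sign alone 5 genes were higher and 5 lower, where 52.0% of all genes were higher and 48.0% lower. The rescaling lifts the whole table, so that 60.9% of all genes were higher after it, with a median log2 ratio of 0.06. The median log2 ratio of the 10 was -0.01, and that of all genes kept was 0.01. None of the 10 changed sign under any scaling or pseudocount tried, and a filter leaves the value of a kept gene as it is.

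**Figure D1:**
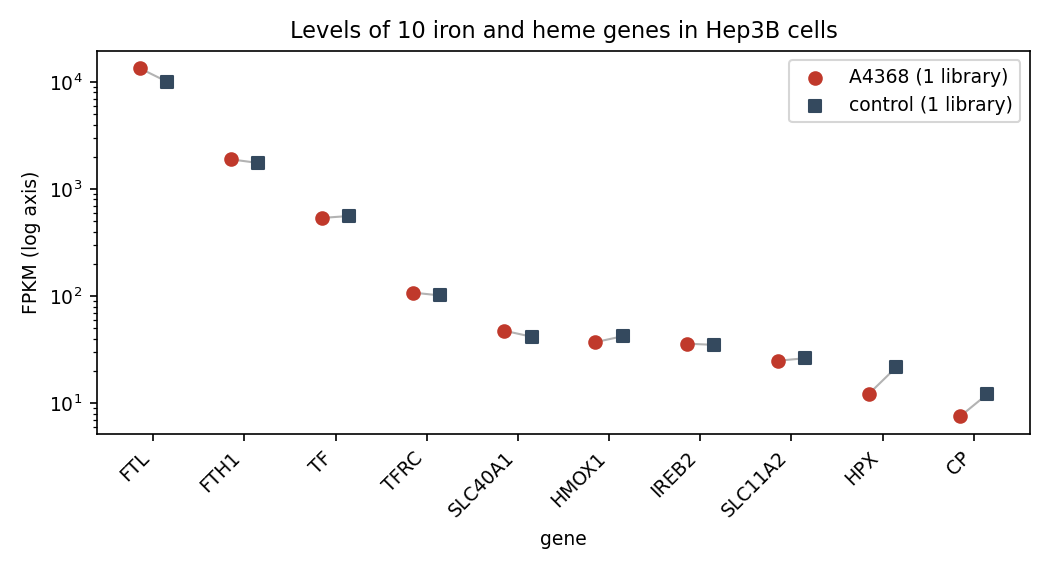
Level of each of the 10 genes in FPKM, on a log axis, in the A4368 library (red circles, left) and the control library (dark squares, right), 1 library each. FTL stands highest in both groups, at 13447 FPKM with A4368 and 10063 FPKM in the control, and the widest gaps are those of HPX and CP at the low end.

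FTL and FTH1 encode the storage shell. FTL, the light chain, which helps iron form its mineral core, stood at 13447 FPKM with A4368 and 10063 FPKM in the control, a 1.34-fold higher level and a log2 ratio of 0.42. It was the most abundant gene of the A4368 library and the second of the control library, where APOA2, an apolipoprotein gene, stood above it at 11457 FPKM. With A4368, APOA2 was at 11651 FPKM. Among the 402 genes averaging 200 FPKM or more, 1 had a log2 ratio as high as that of FTL, which was FTL itself, and the central 95% of these genes lay between -0.39 and 0.16. Among all genes kept its log2 ratio ranked 394 of 11238 from the top, and the genes above it all averaged under 200 FPKM. FTL made up 2.51% of the summed FPKM of the table with A4368 and 1.82% in the control.

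FTH1, the heavy chain, which carries the ferroxidase activity that oxidises incoming iron, was at 1895 FPKM with A4368 and 1752 FPKM in the control. The log2 ratio was 0.11, within the range of most genes of its level, and 16 of the 402 genes at 200 FPKM or more were at least as high. The level of FTL was 7.10 times that of FTH1 with A4368 and 5.74 times in the control, so the ratio of light to heavy chain RNA was 1.24-fold higher with the compound. Both chains summed to 15342 FPKM with A4368 and 11815 FPKM in the control. Ferritin pseudogenes and neighbours bear on these values. Of the distinct 31-base words of FTL transcripts 33.3% also occur in other genes, mostly the pseudogene FTLP3, and 63.0% of those of FTH1 do, mostly in BEST1, whose exons overlap FTH1 on the other strand. Neither BEST1 nor a ferritin pseudogene had a value in the table, the use of strand is not given, and the part of shared reads in the FTL and FTH1 values was not tested.

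Uptake and export genes differed little. TFRC, the transferrin receptor, was at 108 FPKM with A4368 and 101 FPKM in the control, a log2 ratio of 0.09. SLC11A2, which encodes DMT1, the transporter that moves ferrous iron out of endosomes, was at 24.9 FPKM with A4368 and 26.3 FPKM in the control, a log2 ratio of -0.08. SLC40A1, the ferroportin gene, was at 47.6 FPKM with A4368 and 41.8 FPKM in the control, 1.14-fold higher. IREB2, the gene of iron regulatory protein 2, was at 36.0 FPKM with A4368 and 35.1 FPKM in the control, a log2 ratio of 0.04. In the band of 20 to 200 FPKM, which holds these genes, the central 95% of 3966 genes lay between -0.46 and 0.35, and all of them lay inside it. Summed ferritin RNA was 142 times the TFRC level with A4368 and 116 times in the control.

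HMOX1, which encodes heme oxygenase 1, the inducible enzyme that opens the heme ring and frees its iron, was at 37.2 FPKM with A4368 and 42.2 FPKM in the control. It was 1.14-fold lower, with a log2 ratio of -0.18, and 709 of the 3966 genes in its band were at least as low. FTL, FTH1 and HMOX1, all known targets of NRF2 and BACH1, had log2 ratios of 0.42, 0.11 and -0.18. Under each scaling FTL ranged from 0.42 to 0.47, FTH1 from 0.11 to 0.16 and HMOX1 from -0.18 to -0.13. The part of these factors in the differences was not tested.

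**Figure D2:**
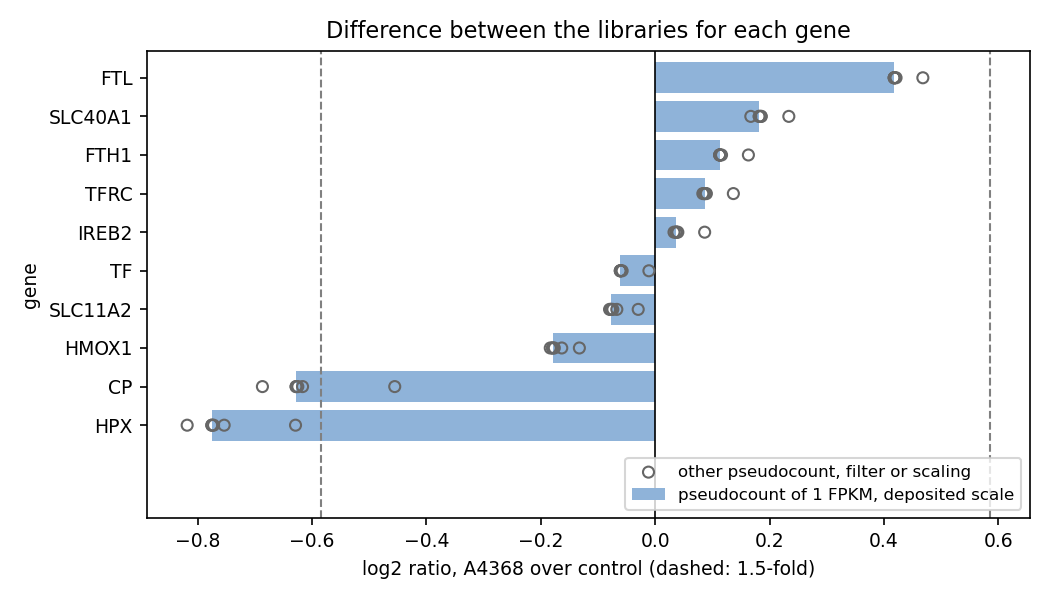
Log2 ratio of A4368 over control for each of the 10 genes (bars), with the values under 6 other choices of pseudocount, filter and scaling (open circles) and the 1.5-fold limit (dashed lines). HPX and CP pass the limit on the lower side as bars, at -0.78 and -0.63, and CP lies inside it at a pseudocount of 5 FPKM, at -0.46.

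The secreted members differed among themselves. HPX, hemopexin, which binds free heme in plasma and returns it to hepatocytes, was at 12.2 FPKM with A4368 and 21.6 FPKM in the control, 1.77-fold lower. CP, ceruloplasmin, the copper-carrying ferroxidase that oxidises iron leaving cells, was at 7.53 FPKM with A4368 and 12.2 FPKM in the control, 1.62-fold lower. TF, transferrin, the plasma iron carrier, was at 537 FPKM with A4368 and 560 FPKM in the control, a log2 ratio of -0.06. The TF level was therefore 43.9 times that of HPX with A4368 and 25.9 times in the control, and 71.4 times that of CP with A4368 and 46.0 times in the control.

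HPX and CP were the least abundant of the 10 in both libraries. Their log2 ratios of -0.78 and -0.63 ranked 111 and 200 from the bottom of 11238 genes. Of 4394 genes with a mean of 5 to 20 FPKM, 39 were at least as low as HPX and 75 at least as low as CP, and the central 95% of that band lay between -0.54 and 0.46. HPX shared no 31-base word with another gene. CP shared 25.7% of its words, most of them with HPS3, whose exons overlap CP on the other strand over 1418 bases. HPS3 itself was at 13.8 FPKM with A4368 and 13.0 FPKM in the control. The part of shared reads in the CP value was not tested.

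**Figure D3:**
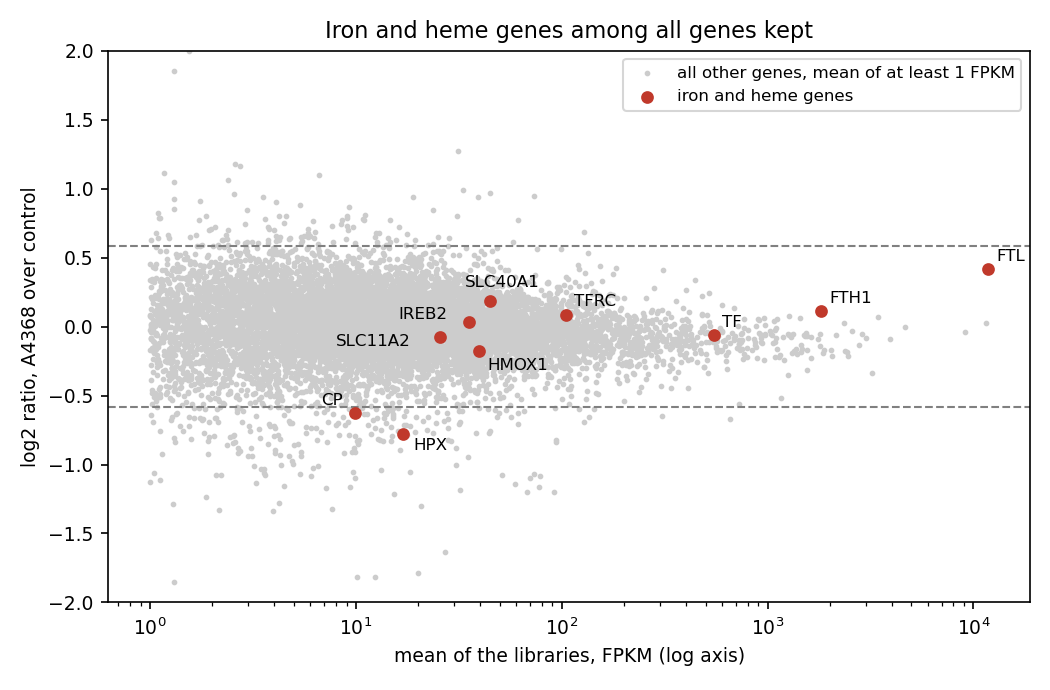
Log2 ratio of A4368 over control against the mean of both libraries in FPKM (log axis) for the genes averaging 1 FPKM or more (grey), with the 10 iron and heme genes in red and the 1.5-fold limit dashed. FTL stands above the other abundant genes at the right, HPX and CP lie below the lower limit, and 7 genes beyond 2 log2 units are not shown.

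Of the 10 genes, the 5 with a matching hairpin pattern were FTL, FTH1, SLC40A1, TFRC and TF. The first 4 of these had values above the control, where 52.0% of all genes did. The median log2 ratio of the 5 was 0.11, and that of the 95 kept genes with the pattern was 0.04. Outside the 10 genes, transcripts known to carry such an element were split, with 3 of 6 higher, none past the limit, and a median of 0.00. The pattern matched only 2 of these 6, so a gene without a match may still carry an element. EPAS1, which encodes the hypoxia factor HIF-2 alpha, was at 45.8 FPKM with A4368 and 57.1 FPKM in the control. PFN2, a profilin gene, was at 99.5 FPKM with A4368 and 86.8 FPKM in the control, and CDC14A, a phosphatase gene, was at 1.47 FPKM with A4368 and 1.71 FPKM in the control.

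Further genes of iron and heme biology were described in 11 lists with 115 measured genes in all, of which 113 were kept. Of these 113, 62 (54.9%) were higher and 51 lower, near the 52.0% of all genes that were higher. BMP2 was the gene past the limit, where 3.19% of all genes passed it in either direction. Cellular iron sensing genes were even, with 3 of 6 higher. ACO1, which encodes iron regulatory protein 1 and doubles as cytosolic aconitase, was 1.21-fold higher at 23.3 FPKM with A4368 and 19.3 FPKM in the control, while its partner IREB2 was nearly level. FBXL5, the iron-sensing subunit of the ligase that degrades iron regulatory proteins, was at 22.6 FPKM with A4368 and 20.5 FPKM in the control, and RC3H1, a gene of the RNA-binding protein roquin, was at 5.53 FPKM with A4368 and 5.28 FPKM in the control. ZC3H12A, the gene of regnase 1, which degrades messengers, was at 2.49 FPKM with A4368 and 3.31 FPKM in the control.

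Genes of iron and heme uptake and reduction had 5 of 10 kept members higher, near the 52.0% of all genes, with a median of 0.04. SLC48A1, a heme transporter gene, was at 6.39 FPKM with A4368 and 5.01 FPKM in the control, and LRP1, whose product takes up hemopexin bound to heme, was at 10.4 FPKM with A4368 and 8.85 FPKM in the control. Thus the hemopexin receptor gene was 1.18-fold higher while HPX itself was lower. STEAP1, a member of a metalloreductase family, was 1.19-fold lower, and FLVCR2 was 1.15-fold higher. Of the 4 kept genes of ferritin turnover and iron delivery, NCOA4, the receptor that sends ferritin to autophagy, was at 79.9 FPKM with A4368 and 79.3 FPKM in the control. PCBP2, an iron chaperone gene, was at 399 FPKM in both libraries, and its relative PCBP1 was at 250 FPKM with A4368 and 280 FPKM in the control. HERC2, a ubiquitin ligase gene that acts on NCOA4, was 1.30-fold higher. Words that also occur in other genes made up 24.9% of HERC2, 50.5% of PCBP1, 32.8% of PCBP2, 33.5% of STEAP1 and 24.7% of FLVCR2.

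The list on hepcidin, the liver hormone that makes ferroportin degrade, leaned lower. Hepcidin's own gene, HAMP, had no value in the table. The 15 kept genes sense iron, carry the BMP signal to HAMP, or are inhibitors or a target of that signal. The inhibitors and the target were among the lower genes. As deposited 11 of the 15 were lower, where 48.0% of all genes were. After the rescaling 10 were lower and 33.3% higher, where 60.9% of all genes were higher. The median log2 ratio of the 15 as deposited was -0.14. BMP2, a ligand of this pathway, was at 8.35 FPKM with A4368 and 18.2 FPKM in the control, 2.18-fold lower, and passed the limit. No other gene of the list passed it.

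Heme synthesis genes leaned the other way. Of 11 kept genes 9 (81.8%) were higher as deposited, against 52.0% of all genes, with a median of 0.11, and 7 of the 8 enzymes of the pathway from ALAS1 to FECH were among the higher ones. After the rescaling 9 were again higher, where 60.9% of all genes were. None passed the limit as deposited, and after the rescaling ABCB6 did, at a log2 ratio of 0.59. ABCB6, a porphyrin transporter gene, came closest as deposited, at 30.4 FPKM with A4368 and 20.7 FPKM in the control, 1.47-fold higher. However, 52.5% of its words also occur in other genes, most of them in AC068946.2. ALAD, the enzyme that joins aminolevulinate into a pyrrole, was at 18.1 FPKM with A4368 and 15.1 FPKM in the control. UROD, a later enzyme, was lower, at 51.0 FPKM with A4368 and 60.4 FPKM in the control, as was TSPO, an outer mitochondrial membrane protein gene, at 10.8 FPKM with A4368 and 14.4 FPKM in the control.

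Heme breakdown was mixed around HMOX1. The enzymes after heme oxygenase were higher. BLVRA, a biliverdin reductase gene, was at 60.9 FPKM with A4368 and 45.6 FPKM in the control, and BLVRB, the second reductase gene, was at 118 FPKM with A4368 and 91.6 FPKM in the control. POR, which supplies electrons to heme oxygenase, was at 38.1 FPKM with A4368 and 30.6 FPKM in the control. The regulators BACH1, NFE2L2 (the NRF2 gene), KEAP1, MAFG, MAFK and MAFF all had log2 ratios below 0, from -0.05 for BACH1 to -0.53 for MAFF, a small MAF partner at 3.30 FPKM with A4368 and 5.19 FPKM in the control. In all 4 of 10 genes of this list were higher, where 52.0% of all genes were higher and 48.0% lower. The median of the list was -0.06, and none of its genes passed the limit.

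**Figure D4:**
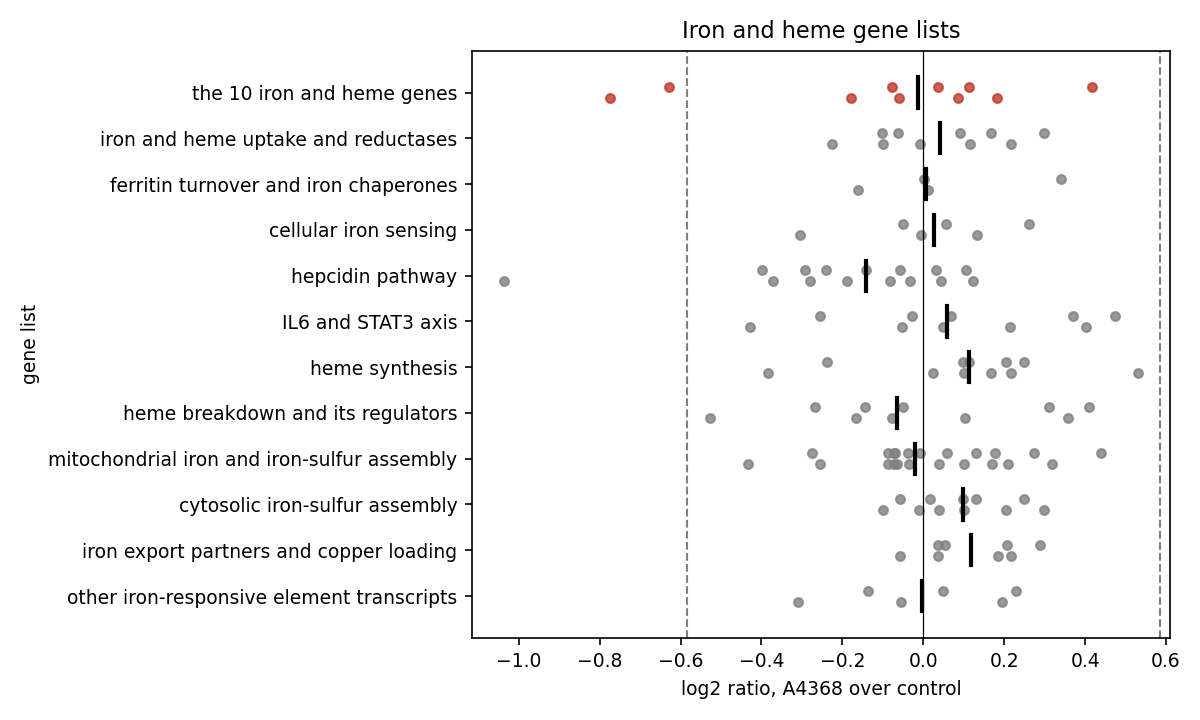
Log2 ratio of A4368 over control for the kept genes of each list (points) with the list median (black bars), the 10 iron and heme genes in red at the top and the 1.5-fold limit dashed. The point at the far left is BMP2 in the hepcidin list, and no other point outside the top row passes the limit.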

How the data were processed

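RNA of 2 Hep3B libraries, 1 per group, was measured by RNA-seq. The authors deposited 1 table of gene symbols and values, with no unit in its header. Bowtie2 2.2.3, TopHat2 2.0.12, hg19 and Cufflinks stand in the submitters' processing notes, and since Cufflinks estimates FPKM, the deposited values were taken as FPKM. Depth, annotation, strand use and the rule that removed low genes are not stated there, so no counting interval can be given. Of 24302 lines 11511 held values, and 273 genes with a mean under 1 FPKM were left out.

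The ratios used Python 3.11.15, numpy 2.4.6 and pandas 2.3.3. Their arithmetic was checked on simulated data with little noise and planted differences larger than those of the 10 genes. That check does not show how the limit performs on data like these. The alternatives were other pseudocounts, filters, scalings and limits, a mean in place of the median, and leaving out genes with much shared sequence. Words of 31 bases and hairpins came from GENCODE release 29 on GRCh38. Since that build is not hg19 and the table has no positions, no genome coordinates are given. The 10 genes and the lists were chosen with earlier results of these data known. The naming rule took the 10 genes and, from each list, the kept genes past the 1.5-fold limit or otherwise up to 4 with the largest absolute log2 ratio. A gene taken by this rule is not reported here. Other genes were added after their values were seen. BACH1, NFE2L2, KEAP1, MAFG and MAFK came as the rest of a count, and HPS3, APOA2 and BEST1 as neighbours or for comparison. LYZ, FGA, FGB, FGG, SERPINA3, SOCS3, COX17, ATP7A and ATP7B were added to show what lies behind a sum, count or list.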

Additional observations from a re-analysis of the deposited data

How the results depend on the processing

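Of 60 values of the 10 genes under 6 other choices of pseudocount, filter and scaling, 58 lay within 0.1 log2 units of those reported. The others were CP at -0.46 and HPX at -0.63 with a pseudocount of 5 FPKM, which left 1 gene, HPX, lower by the 1.5-fold limit, in place of 2. The filters could not move any of the 60 values, since a filter only removes genes and all 10 averaged above 5 FPKM. Only the pseudocounts and scalings could move them. A 2-fold limit left 0 lower genes of the 10, and the laxest limit tried added 1 higher gene, FTL. Over the whole table the limit was passed by 369 lower and 259 higher genes with a pseudocount of 0.1 FPKM, by 78 and 20 with a pseudocount of 5 FPKM, and by 140 and 58 among genes averaging 5 FPKM or more. The rescaling, which also makes the pseudocount weigh less, gave 259 higher genes. A 2-fold limit gave 49 lower and 13 higher genes, and the laxest limit 876 and 822. The median of the 10 moved by under 0.1 log2 units in each alternative, to -0.06 without FTH1 and to 0.04 after the rescaling, as did all 66 list medians. No paired analysis was possible because each group has 1 library, and no library could be left out. The depth is unknown, so how much of any difference is counting error could not be given.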

Other observations

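Genes that build iron-sulfur clusters, a main use of cellular iron, were also compared. In mitochondria 10 of 22 kept genes (45.5%) were higher as deposited, against 52.0% of all genes, with a median of -0.02. After the rescaling 13 of 22 were higher, where 60.9% of all genes were. NFS1, the cysteine desulfurase that provides the sulfur, was at 31.8 FPKM with A4368 and 25.3 FPKM in the control, whereas LYRM4, its small stabilising partner, was at 47.8 FPKM with A4368 and 64.9 FPKM in the control. IBA57, a late assembly factor gene, was at 3.36 FPKM with A4368 and 2.21 FPKM in the control, and FDX1, a ferredoxin gene, was at 5.46 FPKM with A4368 and 6.83 FPKM in the control. The list for the cytosolic pathway also counts genes such as CISD2, which encodes an iron-sulfur protein rather than a cytosolic assembly factor. Of its 11 kept genes 8 were higher as deposited, with a median of 0.10. After the rescaling 9 of the 11 were higher, where 60.9% of all genes were. NUBP2, a scaffold gene, was 1.24-fold higher, CISD2 1.19-fold, NDOR1 1.16-fold and CIAO1 1.10-fold. None of these genes passed the 1.5-fold limit.

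Ceruloplasmin needs copper, and 7 of 8 kept genes of copper delivery (87.5%) had values above the control, against 52.0% of all genes, with a median of 0.12 and none past the limit. After the rescaling 7 were again higher, where 60.9% of all genes were. Of the 7, COX17 was 1.03-fold higher, ATP7A 1.04-fold and ATP7B 1.05-fold. SLC31A1, the copper importer gene, was at 18.4 FPKM with A4368 and 14.9 FPKM in the control, and ATOX1, the chaperone that hands copper to the secretory pathway, was at 117 FPKM with A4368 and 103 FPKM in the control. COMMD1 was 1.17-fold higher and CCS 1.16-fold. HPX and CP are also acute phase genes, which respond to interleukin-6. IL6R, a receptor gene, was at 7.51 FPKM with A4368 and 5.13 FPKM in the control, and IL6ST, the shared signalling subunit, was at 25.1 FPKM with A4368 and 18.7 FPKM in the control. CEBPB, an acute phase transcription factor gene, was 1.33-fold higher and its relative CEBPD 1.37-fold lower. FGB, a fibrinogen gene, was at 119 FPKM with A4368 and 143 FPKM in the control. Of the other fibrinogen genes, FGA was at 263 FPKM with A4368 and 273 FPKM in the control. FGG was higher, at 166 FPKM with A4368 and 158 FPKM in the control. In this list 6 of 10 kept genes were higher, where 52.0% of all genes were, with a median of 0.06, and none passed the limit. The filter on low values had removed SERPINA3, an acute phase inhibitor gene at 0.0953 FPKM with A4368 and 1.03 FPKM in the control, and SOCS3, a feedback inhibitor gene at 0.574 FPKM with A4368 and 0.972 FPKM in the control, and with both the median was 0.01.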
